A study of Mus musculus with 16 samples.

Results

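Rag1, Rag2 and Dntt, the genes of the lymphoid recombination machinery, were followed across every group of a microarray study of early thymocytes. They were taken by gene symbol, whatever their values, and were 3 of 19531 genes named by a probe set with a single symbol. Each has 1 probe set on the array. All 3 also passed the filter for testing, a highest group mean of at least 7.05 on the log2 scale, along with 10689 genes in all. Rag2 passed through its non-transgenic groups, and its transgenic group means of 4.78 to 6.46 lie under that line.

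The cells were double-negative thymocytes of mice aged 4 weeks, sorted by flow cytometry after CD4 and CD8 cells had been removed with complement. NOD mice develop autoimmune diabetes, and in B6g7 mice the H2g7 MHC haplotype of NOD has been placed on the C57BL/6 background, so that haplotype is common to all groups. Non-transgenic mice (non-Tg) rearrange their own T cell receptor (TCR) genes, while BDC/B6g7 and BDC/NOD mice carry the rearranged BDC2.5 TCR of a diabetogenic CD4 T cell clone. DN2-3 cells were CD4-CD8-Lin-CD25+ and DN4 cells were CD4-CD8-Lin-CD44-CD25-. The 8 groups, B6g7, NOD, BDC/B6g7 and BDC/NOD at both stages, held 2 arrays each, 16 in all. In each BDC group replicate 1 was male and replicate 2 female, and the non-Tg arrays were all of females. The replicates of a BDC group thus came from separate animals, and their spread includes any effect of sex. For the non-Tg groups no label tells whether replicates are separate animals, so their spread may be technical. Each p-value reflects the spread between arrays.

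V(D)J recombination assembles the variable exons of antigen receptor genes in developing lymphocytes. RAG1 and RAG2 form the recombinase: RAG1 carries the DNA-binding and cleaving activity, and RAG2 is its essential partner, with a domain that reads a histone mark of active chromatin. TdT, the product of Dntt, adds untemplated nucleotides at the opened ends before ubiquitous repair proteins join them. In the thymus the Tcrb locus is rearranged at the DN2-3 stages, success there is read by the pre-TCR, recombinase expression dips as the cells divide, and it returns when Tcra is rearranged in double-positive cells. A TCR transgene supplies a receptor that needs no rearrangement.

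In the RefSeq annotation of GRCm38.p6, Rag1 (chr2:101638252-101649532, minus strand) and Rag2 (chr2:101624712-101632528, plus strand) face each other with 5723 bases between them, and Dntt lies at chr19:41029275-41059525 on the plus strand. The 250 bases before each annotated start, which lie outside the transcripts, are printed because all 3 genes were lower in transgenic cells. Capitals mark 3 motifs of factors known to act on these genes, searched on both strands: the E-box bound by E proteins (CANNTG), the Runx site (TGTGGT) and the core of the Ikaros site (TGGGAA).
Rag1 (chr2:101649533-101649782, minus strand): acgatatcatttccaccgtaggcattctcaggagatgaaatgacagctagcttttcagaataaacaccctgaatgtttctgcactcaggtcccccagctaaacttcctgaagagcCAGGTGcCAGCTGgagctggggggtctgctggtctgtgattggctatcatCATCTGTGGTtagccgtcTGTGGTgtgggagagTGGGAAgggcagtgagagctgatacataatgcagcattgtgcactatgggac
Rag2 (chr2:101624462-101624711, plus strand): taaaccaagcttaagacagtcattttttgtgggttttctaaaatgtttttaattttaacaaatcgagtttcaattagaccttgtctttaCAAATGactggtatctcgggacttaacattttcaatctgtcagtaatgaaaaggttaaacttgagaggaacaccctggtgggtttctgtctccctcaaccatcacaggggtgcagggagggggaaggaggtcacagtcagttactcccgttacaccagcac
Dntt (chr19:41029025-41029274, plus strand): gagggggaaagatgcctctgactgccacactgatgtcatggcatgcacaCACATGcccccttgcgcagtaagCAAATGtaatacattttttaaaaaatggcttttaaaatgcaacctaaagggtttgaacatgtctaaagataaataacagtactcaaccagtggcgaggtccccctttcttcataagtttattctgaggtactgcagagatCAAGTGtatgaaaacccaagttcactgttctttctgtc
The Rag1 window holds 3 E-boxes, 2 Runx motifs and 1 Ikaros core, and the first Runx motif, 81 to 76 bases before the start, overlaps the last E-box. The Rag2 window holds 1 E-box and the Dntt window 3, with neither of the other motifs. Of 32851 promoter windows of that length, 66.2% hold an E-box, 14% a Runx motif and 21.6% an Ikaros core, so these matches are descriptions of the sequence and not binding sites. The windows had a GC content of 50.8% for Rag1, 41.2% for Rag2 and 41.6% for Dntt.

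Median intensity ran from 123.1 to 138.2 over the arrays. Replicates of a group differed by a median of 0.0856 to 0.136 on the log2 scale, except in NOD DN2-3 cells (0.242), where replicate 1 stood apart; results that use that group are given below also without it where that matters. Il2ra, which encodes the sorting marker CD25, was at 12.32 to 13.30 on the log2 scale in the DN2-3 arrays and at 9.09 to 10.56 in the DN4 arrays, in the order of the labels. No detection calls were used, so the 3 Y-linked genes Kdm5d, Eif2s3y and Uty on the female arrays served as a gauge of background on the log2 scale: their highest signal there was 5.98. Xist, silent in male cells, read 5.70 to 6.73 on the male arrays. Where a group lies wholly at or under 5.98, its difference from a group clearly brighter than these background readings is given as a bound. The lower values are then raised to that level.

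Rag1 varied the most of the 3, with a span of 25.1-fold between its highest and lowest group means. In non-Tg cells the log2 intensity of replicates 1 and 2 was 11.55 and 11.28 in B6g7 DN2-3, 10.75 and 11.43 in NOD DN2-3, 9.91 and 10.49 in B6g7 DN4, and 10.98 and 11.19 in NOD DN4. In transgenic cells it was 8.39 and 8.02 in BDC/B6g7 DN2-3, 9.45 and 9.69 in BDC/NOD DN2-3, 7.04 and 6.49 in BDC/B6g7 DN4, and 9.97 and 10.08 in BDC/NOD DN4. The lowest group was thus BDC/B6g7 DN4, and the highest were the non-Tg groups other than B6g7 DN4. In BDC/B6g7 DN4, replicate 2 (6.49) lies within the range that Xist shows in male cells and replicate 1 (7.04) above it. Differences between this group and brighter ones, the span among them, are therefore read as lower limits. In the order of the 8 means, B6g7 DN2-3, NOD DN2-3 and NOD DN4 came first and did not differ from their neighbours beyond the 95% interval of the fit. A step of 0.88 (interval 0.35 to 1.40) led down to B6g7 DN4, which overlapped BDC/NOD DN4. BDC/NOD DN2-3 followed, 0.46 below that group (interval -0.07 to 0.98), and steps of 1.37 and 1.44 then separated BDC/B6g7 DN2-3 and BDC/B6g7 DN4, with intervals that leave out 0.

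Rag2 had a smaller measurable range because its lowest groups lie under the background gauge. Its log2 intensity was 8.17 and 7.97 in B6g7 DN2-3, 8.90 and 8.42 in NOD DN2-3, 8.26 and 7.46 in B6g7 DN4, and 8.46 and 8.16 in NOD DN4. The transgenic arrays read 6.38 and 6.54 in BDC/NOD DN2-3 and 6.43 and 6.24 in BDC/NOD DN4, just above the gauge, and 5.45 and 5.38 in BDC/B6g7 DN2-3 and 4.73 and 4.83 in BDC/B6g7 DN4, below it. The 8 non-Tg arrays and the 8 transgenic arrays did not overlap. Of the 10689 genes tested, 112 were lower and 225 higher on all transgenic arrays in this way. Among the 4 non-Tg groups no neighbours in the order differed beyond their interval, the drop from B6g7 DN4 to BDC/NOD DN2-3 was 1.40 (interval 0.94 to 1.87), and the 2 BDC/NOD groups overlapped. The order of the 2 BDC/B6g7 groups lies within signals that cannot be told from background.

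Dntt was bright on every array and moved least, with a span of 2.88-fold between group means. Replicates 1 and 2 read 11.91 and 11.85 in B6g7 DN2-3, 11.48 and 11.79 in NOD DN2-3, 11.26 and 11.38 in B6g7 DN4, and 11.35 and 11.37 in NOD DN4. The transgenic cells read 10.76 and 10.86 in BDC/B6g7 DN2-3, 10.99 and 11.01 in BDC/NOD DN2-3, 10.36 and 10.35 in BDC/B6g7 DN4, and 11.04 and 11.23 in BDC/NOD DN4. All 8 transgenic arrays lie under all 8 non-Tg arrays for Dntt too, by as little as the gap between 11.23 and 11.26. Neighbours in the middle of the order, from NOD DN4 down to BDC/B6g7 DN2-3, did not differ beyond their intervals, while BDC/B6g7 DN4 was 0.46 below the next group (interval 0.23 to 0.69).

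**Figure D1:**
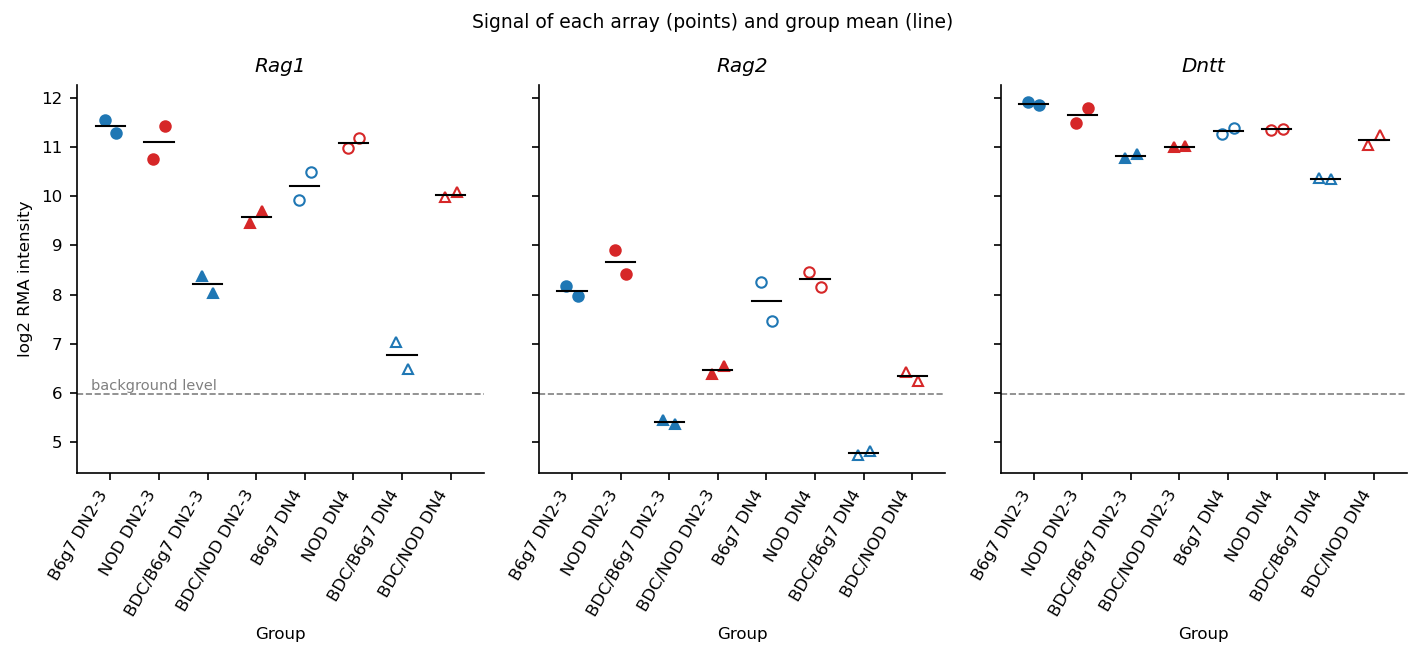
Log2 RMA intensity (vertical axis) of Rag1, Rag2 and Dntt in each of the 8 groups (horizontal axis); points are arrays, lines are means of the 2 arrays, circles are non-Tg and triangles BDC, blue is B6g7 and red NOD, filled is DN2-3 and open DN4, and the dashed line is the background gauge of 5.98. BDC/B6g7 DN4 is the lowest group for Rag1 and Dntt, and both BDC/B6g7 groups lie under the dashed line for Rag2, where their order cannot be told.

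The first comparison asked how a prearranged TCR changed the 3 genes. Both recombinase genes fell in all 4 settings, and Dntt fell in 3 of them. Rag1 fell by 3.21 ± 0.24 (log2, SE of the limma fit, n = 2 arrays a group) in B6g7 DN2-3 cells, 9.27-fold, and it fell by 3.44 ± 0.24 in B6g7 DN4 cells, 10.9-fold. The B6g7 DN4 fall is read as a lower limit, since the BDC/B6g7 DN4 arrays lie near background. In NOD mice Rag1 fell by 1.52 ± 0.24 in DN2-3 and fell by 1.05 ± 0.24 in DN4 cells, 2.87-fold and 2.08-fold. The B6g7 changes were among the largest of the 10689 genes tested, ranking 8 and 27 by size, against 82 and 249 in NOD mice. The adjusted p values (limma, Benjamini-Hochberg) were 9.85e-07 and 8.22e-08 in B6g7 DN2-3 and DN4, and 0.000543 and 0.00657 in NOD.

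Rag2, the partner without which RAG1 cannot cut, fell by 2.20 ± 0.22 in NOD DN2-3 cells and fell by 1.97 ± 0.22 in NOD DN4 cells (limma adjusted p = 1.41e-05 and 3.14e-05). The BDC/NOD arrays, at 6.24 to 6.54, lie within the range of Xist on male arrays, so these falls are read as lower limits. In B6g7 mice it was at least 4.26-fold lower in DN2-3 cells and at least 3.69-fold lower in DN4 cells, the differences as deposited being -2.66 ± 0.22 and -3.08 ± 0.22 (adjusted p = 2.06e-06 and 7.79e-08). Dntt fell by 1.07 ± 0.11 in B6g7 DN2-3, 0.64 ± 0.11 in NOD DN2-3 and 0.97 ± 0.11 in B6g7 DN4 cells (adjusted p = 1.36e-05, 0.000766 and 4.9e-06). In NOD DN4 cells its difference of -0.23 ± 0.11 did not pass (limma adjusted p = 0.145). The arrays of the 2 groups did not overlap there, but of the 10689 genes tested 3303 were higher and 4262 lower without overlap. So 3 of 3 genes passed in B6g7 DN2-3, NOD DN2-3 and B6g7 DN4 cells and 2 of 3 in NOD DN4 cells, where the shares of all tested genes that passed were 29.4%, 35.6%, 59.3% and 25.3%. The shares called lower were 12.5%, 14.1%, 29.2% and 14.8%.

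Averaged over the strains, the change of Rag1 was -2.37 ± 0.17 in DN2-3 and -2.25 ± 0.17 in DN4 cells, where 49.1% and 59.6% of all genes passed in either direction. Rag2 was lower by at least 4.43-fold and 3.81-fold, and the changes of Dntt were -0.85 ± 0.08 and -0.60 ± 0.08. The median change of all tested genes was 0.05 and -0.03 at these stages. Over all 4 settings, in which 50.7% of genes passed, the changes were -2.31 ± 0.12 for Rag1, at least 4.11-fold for Rag2 and -0.72 ± 0.05 for Dntt.

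Since the transgenic groups alone held male arrays, the comparison was also made with the 4 male arrays left out. Here and below, that leaves 1 array in each transgenic group, so the spread comes from the non-Tg pairs alone. A call kept or lost in that setting is therefore no test of sex. Every transgene call above was kept except that of Rag1 in NOD DN4 cells (-1.002 ± 0.31, adjusted p = 0.114). That call was also lost without NOD DN4 replicate 2 (-0.95, adjusted p = 0.0536) and without BDC/NOD DN4 replicate 1 (-1.002, adjusted p = 0.0541). Dntt in NOD DN4 cells passed, at -0.23, when either NOD DN2-3 array was left out (adjusted p = 0.0474). Without NOD DN2-3 replicate 1, the array that stood apart, the DN2-3 changes in NOD mice were -1.86 for Rag1, -1.97 for Rag2 and -0.79 for Dntt, all still called.

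**Figure D2:**
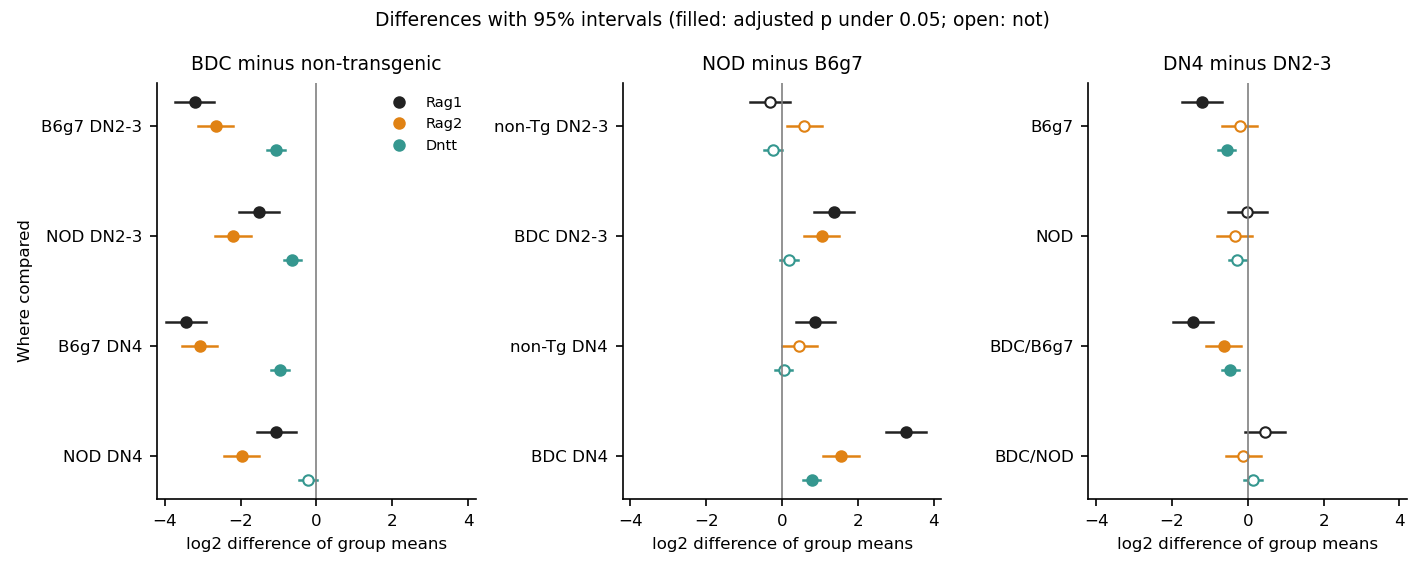
Log2 differences of group means (horizontal axis, with 95% intervals) for Rag1, Rag2 and Dntt: the transgene effect by strain and stage (left, transgenic minus non-Tg), the strain effect by genotype and stage (middle, NOD minus B6g7) and the stage effect by strain and genotype (right, DN4 minus DN2-3); filled points passed an adjusted p of 0.05. The transgene points lie left of 0 for each gene, and the strain difference of Rag1 in transgenic DN4 cells, 3.26, is the rightmost point. Rag2 values that involve a BDC/B6g7 group are plotted as deposited.

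The second comparison set NOD against B6g7 mice. Rag1 was higher in NOD mice wherever the transgene was present and in non-Tg DN4 cells, and not in non-Tg DN2-3 cells. The largest difference was in transgenic DN4 cells, 3.26 ± 0.24 or 9.60-fold (limma adjusted p = 4.96e-07), ranking 6 by size among all genes tested there. That difference is also read as a lower limit, since BDC/B6g7 DN4 lies near background. In transgenic DN2-3 cells it was 1.37 ± 0.24 (adjusted p = 0.00253) and in non-Tg DN4 cells 0.88 ± 0.24 (adjusted p = 0.0268), while in non-Tg DN2-3 cells the value was -0.33 ± 0.24 (adjusted p = 0.395), with overlapping arrays. The arrays of the 2 strains did not overlap in the other 3 settings, which was common among the 10689 genes tested. In transgenic DN2-3 cells 2963 genes were higher and 3038 lower in NOD mice without overlap. The counts were 5445 and 2009 in non-Tg DN4 cells and 4859 and 3457 in transgenic DN4 cells.

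For Rag2 the strain difference depends on how the signals under the background gauge are read. As deposited it was 1.04 ± 0.22 in transgenic DN2-3 and 1.56 ± 0.22 in transgenic DN4 cells (limma adjusted p = 0.00731 and 7.63e-05). With the B6g7 signals raised to the gauge it was 1.39-fold and 1.28-fold. These are not lower limits, since the BDC/NOD arrays themselves lie within the range of Xist on male arrays. With that raising neither call is kept (0.48 and 0.36, limma adjusted p = 0.23 and 0.206). In non-Tg cells, where Rag2 was well above the gauge, it was 0.59 ± 0.22 in DN2-3 and 0.45 ± 0.22 in DN4 cells and did not pass (adjusted p = 0.0997 and 0.141). Dntt was higher in NOD mice in transgenic DN4 cells alone by this test (0.78 ± 0.11, adjusted p = 6.95e-05). Its values were -0.24 ± 0.11 in non-Tg DN2-3, 0.19 ± 0.11 in transgenic DN2-3 and 0.04 ± 0.11 in non-Tg DN4 cells (adjusted p = 0.16, 0.389 and 0.8).

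Counted by setting, none of the 3 genes passed in non-Tg DN2-3, 2 in transgenic DN2-3, 1 in non-Tg DN4 and 3 in transgenic DN4 cells, with 10.6%, 9.19%, 18.7% and 41.0% of all genes passing. With the Rag2 signals raised to the gauge, 1 passed in transgenic DN2-3 and 2 in transgenic DN4 cells. In non-Tg DN2-3 cells the unadjusted p was 0.201 for Rag1, 0.0171 for Rag2 and 0.0406 for Dntt. Averaged over the 4 settings, in which 41.6% passed, the differences were 1.29 ± 0.12 for Rag1 and 0.19 ± 0.05 for Dntt. For Rag2 the average was 0.91 ± 0.11 as deposited and 1.38-fold with the gauge. Single arrays mattered in the non-Tg cells. The non-Tg DN2-3 difference of Rag1 was 0.01 without NOD DN2-3 replicate 1 and -0.66 (adjusted p = 0.0341) without replicate 2, and on leaving out replicate 2 Rag2 reached 0.83 (adjusted p = 0.00879) and Dntt -0.40 (adjusted p = 0.00643). Rag2 there also passed without either B6g7 DN4 array (0.59, adjusted p = 0.0335), and in non-Tg DN4 cells without B6g7 DN4 replicate 1 (0.85, adjusted p = 0.0249). The Rag1 call in non-Tg DN4 cells was lost without B6g7 DN4 replicate 1 (0.59, adjusted p = 0.216) or either NOD DN4 array (0.77 without replicate 2 and 0.98 without replicate 1). Rag2 in transgenic DN2-3 cells lost its call without BDC/B6g7 DN2-3 replicate 2 (1.01) or BDC/NOD DN2-3 replicate 2 (0.96). Without the 4 male arrays the calls of Rag1 in transgenic DN2-3 (1.67, adjusted p = 0.0939) and non-Tg DN4 cells (0.88, adjusted p = 0.0989), of Rag2 in transgenic DN2-3 cells (1.16, adjusted p = 0.283) and of the Dntt average (0.21, adjusted p = 0.0912) were lost.

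The third comparison followed the genes from DN2-3 to DN4, the step at which the pre-TCR is read and cells leave the stage of Tcrb rearrangement. In B6g7 mice both Rag1 and Dntt were lower in DN4 cells, and in NOD mice neither passed. The change of Rag1 was -1.21 ± 0.24 in B6g7 cells and -1.44 ± 0.24 in BDC/B6g7 cells (limma adjusted p = 0.0016 and 0.000258), and its values were -0.01 ± 0.24 in NOD and 0.46 ± 0.24 in BDC/NOD cells (adjusted p = 0.981 and 0.267). Dntt fell by 0.56 ± 0.11 in B6g7 and 0.46 ± 0.11 in BDC/B6g7 cells (adjusted p = 0.00121 and 0.00281).

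In NOD cells Dntt read -0.28 ± 0.11 (adjusted p = 0.0577), which passed with the replicate within a strain and genotype as a random block (SE 0.092, adjusted p = 0.0242) and with the replicate number as a fixed block (SE 0.10, adjusted p = 0.0437). It also passed without NOD DN2-3 replicate 1 (-0.43, adjusted p = 0.00489). In BDC/NOD cells Dntt read 0.14 ± 0.11 (adjusted p = 0.475). Rag2 did not pass in B6g7 (-0.21 ± 0.22), NOD (-0.35 ± 0.22) or BDC/NOD cells (-0.12 ± 0.22), with adjusted p from 0.221 to 0.778. Its call in BDC/B6g7 cells (-0.63 ± 0.22, adjusted p = 0.0261) rests on signals under the gauge, was lost without any 1 of the 4 BDC/B6g7 arrays (-0.68 to -0.58), and no fold is given since both groups lie below background.

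So 2 of 3 genes passed in B6g7, 0 in NOD, 3 in BDC/B6g7 and 0 in BDC/NOD cells, while 42.8%, 38.6%, 50.8% and 11.1% of all genes passed. In the limma fit the unadjusted p of Dntt in NOD cells was 0.0231 and the other values in NOD and BDC/NOD cells were above 0.05. With the replicate as a random block the number of genes called in BDC/NOD cells rose from 1185 to 2077, and none of the 3 was among them. Averaged over the 4 settings, in which 27.5% of genes passed, Rag1 differed by -0.55 ± 0.12, Rag2 by -0.33 ± 0.11 and Dntt by -0.29 ± 0.05. The Rag2 average was -0.17 with the gauge and no longer called, and it lost its call without any 1 of 11 single arrays (-0.35 to -0.23): those other than B6g7 DN2-3 replicate 2, both NOD DN2-3 arrays, B6g7 DN4 replicate 1 and NOD DN4 replicate 1. Rag2 reached -0.58 (adjusted p = 0.0399) in NOD cells without NOD DN2-3 replicate 2. In B6g7 cells it was -0.61 (adjusted p = 0.0315) without B6g7 DN4 replicate 1 and 0.19 without replicate 2. Without the 4 male arrays the calls of the 3 averages (-0.59, -0.35 and -0.28) and of Rag2 and Dntt in BDC/B6g7 cells (-0.55 and -0.52) were lost.

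Interactions tested whether these effects differed between strains or stages. The transgene effect on Rag1 was smaller in NOD than in B6g7 mice by 1.69 ± 0.34 in DN2-3 and by 2.38 ± 0.34 in DN4 cells (limma adjusted p = 0.0327 and 0.000437). For Dntt the gap between the strains was 0.43 ± 0.15 in DN2-3 cells, which did not pass (adjusted p = 0.281), and 0.74 ± 0.15 in DN4 cells (adjusted p = 0.00442). For Rag2 it was 0.46 ± 0.31 and 1.10 ± 0.31 as deposited (adjusted p = 0.576 and 0.0221), and -0.11 and -0.09 once signals under the gauge were raised to it, so its direction cannot be given. Only 1.15% of all genes passed this test in DN2-3 cells, where 1 of the 3 did, against 20.1% in DN4 cells, where 3 of 3 did as deposited. Averaged over stages, in which 10.9% passed, the gap was 2.04 ± 0.24 for Rag1, 0.58 ± 0.11 for Dntt and 0.78 ± 0.22 for Rag2, the last again reversed to -0.10 with the gauge and not called with the replicate within a strain and genotype as a random block (0.78 ± 0.24, adjusted p = 0.0714). The Rag1 call in DN2-3 cells was lost without any 1 of 10 single arrays, both of B6g7 DN2-3, BDC/B6g7 DN2-3, BDC/NOD DN2-3, NOD DN4 and BDC/NOD DN4 (1.51 to 1.88, adjusted p from 0.0501 to 0.176). The Rag2 call in DN4 cells was lost without B6g7 DN4 replicate 1, NOD DN4 replicate 2, BDC/NOD DN4 replicate 1 or either BDC/B6g7 DN4 array (0.70 to 1.15). Its average was lost without any of 11 arrays (0.70 to 0.83), those other than both NOD DN2-3 arrays, both B6g7 DN4 arrays and NOD DN4 replicate 1. Dntt in DN2-3 cells passed without NOD DN2-3 replicate 2 (0.58, adjusted p = 0.00686).

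The stage effect on Rag1 also differed between the strains, by 1.204 ± 0.34 in non-Tg and 1.90 ± 0.34 in transgenic cells (adjusted p = 0.048 and 0.00248). For Dntt the difference was 0.28 ± 0.15 in non-Tg cells (adjusted p = 0.182) and 0.59 ± 0.15 in transgenic cells (adjusted p = 0.0173), and for Rag2 it was -0.14 ± 0.31 and 0.51 ± 0.31, neither of which passed. In these 2 tests 9.05% and 15.8% of all genes passed, and in the average over genotypes, where Rag1 (1.55 ± 0.24) and Dntt (0.44 ± 0.11) passed, 21.8%. The non-Tg call of Rag1 was lost without any 1 of 14 single arrays (0.87 to 1.34), all but NOD DN2-3 replicate 2 and B6g7 DN4 replicate 2. The transgenic call of Dntt was lost without BDC/B6g7 DN2-3 replicate 2, either BDC/NOD DN2-3 array, BDC/B6g7 DN4 replicate 2 or BDC/NOD DN4 replicate 2 (0.50 to 0.61), and its non-Tg difference passed without NOD DN2-3 replicate 2 (0.44, adjusted p = 0.0134). With the 4 male arrays left out, the strain by transgene calls of Rag1 in DN4 cells (2.71, adjusted p = 0.0234) and on average (2.35, adjusted p = 0.0207) were kept and every other interaction call above was lost.

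No difference of the transgene effect between the stages passed for any of the 3 genes. That difference, DN4 minus DN2-3, was -0.23 ± 0.34 in B6g7 and 0.47 ± 0.34 in NOD mice for Rag1, and -0.42 ± 0.31 and 0.23 ± 0.31 for Rag2. For Dntt it was 0.10 ± 0.15 in B6g7 and 0.41 ± 0.15 in NOD mice (adjusted p = 0.0522). None of the 3 passed in B6g7, in NOD or averaged over strains, while 54.3%, 33.4% and 57.8% of all tested genes did. The unadjusted p was 0.0177 for Dntt in NOD mice and 0.0331 on average, and both passed with the replicate as a fixed block (adjusted p = 0.0395 and 0.0427) or as a random block within a strain and genotype (adjusted p = 0.0209 and 0.0258). Both also passed without NOD DN2-3 replicate 1 (0.56 in NOD mice and 0.33 on average) or BDC/NOD DN4 replicate 1 (0.51 and 0.30). Rag2 in B6g7 mice passed without B6g7 DN4 replicate 2 (-0.82, adjusted p = 0.0141). The 95% intervals reach from -0.97 to 0.51 for Rag1 in B6g7 and from -0.27 to 1.21 in NOD mice, so changes of that size are not shown to be absent. In the 3-way term none of the 3 passed either, with unadjusted p of 0.177, 0.156 and 0.169, against 8.90% of genes.

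The 3 genes did not respond in equal measure. The fall with the transgene was larger for Rag1 than for Dntt in every setting. The change of Rag1 minus that of Dntt was -2.15 (log2, 95% interval -2.59 to -1.70) in B6g7 DN2-3, -0.88 (-1.33 to -0.44) in NOD DN2-3, -2.47 (-2.92 to -2.03) in B6g7 DN4 and -0.83 (-1.27 to -0.38) in NOD DN4 cells. Rag1 and Rag2 differed less clearly from each other. In NOD mice the change of Rag1 minus that of Rag2 was 0.92 (interval 0.05 to 1.79) in DN4 and 0.68 (interval -0.19 to 1.55) in DN2-3 cells, with the transgenic Rag2 arrays near background. In B6g7 mice the interval of the difference held 0 as deposited (-0.56, -1.42 to 0.31 in DN2-3 and -0.36, -1.23 to 0.51 in DN4 cells). The measured fall of Rag2 there is limited by the background.

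**Figure D3:**
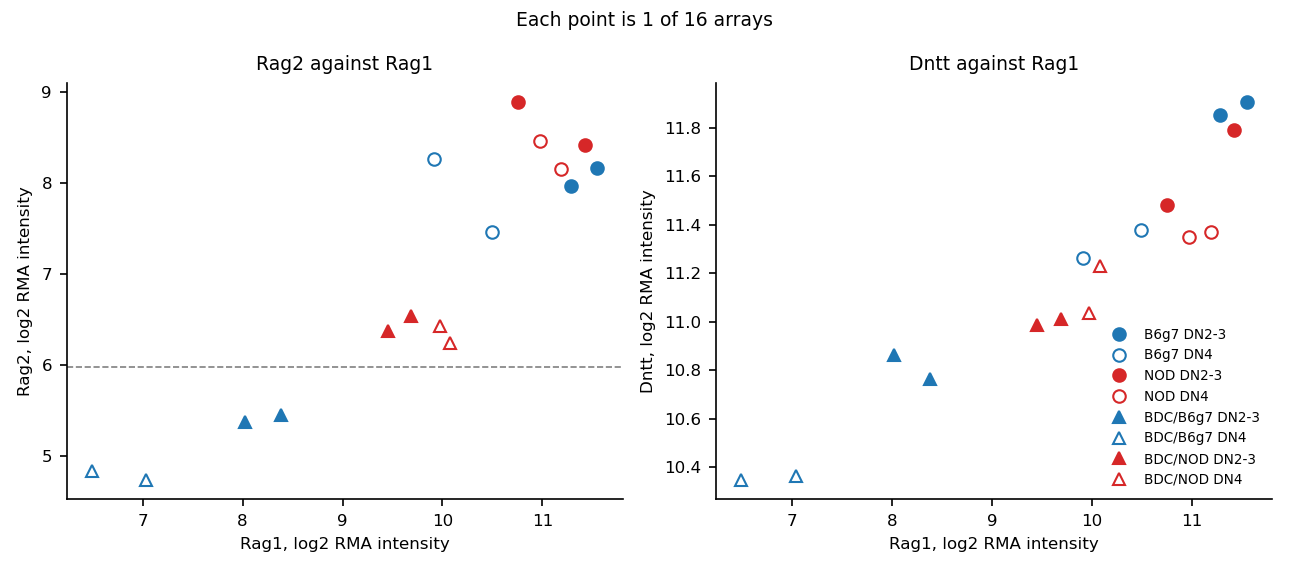
Log2 intensity of Rag2 (left) and Dntt (right) against Rag1 (horizontal axis), 1 point per array, with circles for non-Tg, triangles for BDC, blue for B6g7, red for NOD, filled for DN2-3 and open for DN4; the dashed line is the background gauge for Rag2. The transgenic arrays line up in both panels, whereas the non-Tg arrays form a cloud in the left panel.

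Within the 8 transgenic arrays the genes varied together (Pearson r of 0.96 for Rag1 with Rag2, 0.96 for Rag1 with Dntt and 0.91 for Rag2 with Dntt). The order of single arrays was not shared: of the BDC/NOD arrays, DN4 replicate 2 was highest in Rag1 (10.08) and lowest in Rag2 (6.24). Within the 8 non-Tg arrays Rag1 still followed Dntt (r = 0.79), but not Rag2 (r = 0.09), and Rag2 did not follow Dntt (r = -0.02). These are descriptions over arrays that come in pairs from 4 groups, with no test, and 4 of the 8 transgenic Rag2 signals lie under the gauge.

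Of the genes whose pattern over all 16 arrays was most like that of Rag1, by Pearson r among 10285 genes compared, Ptcra came first (0.97), which encodes the pre-TCR alpha chain. Ssbp2, Zbtb11, Camkv, Zfp961, Dntt (0.95), Xrcc6 (0.95), which encodes the Ku70 end-binding protein, and Tbc1d31 followed. Those most like Dntt were Camkv (0.97), Rgcc, Rag1 (0.95), Ptcra (0.94), Zdhhc14, Tbc1d31, Spib, an Ets-family transcription factor, and Ndrg1 (0.93). For Rag2 they were Polk (0.94), a translesion polymerase, Bpnt2, Akr1b10, Zdhhc14, Zfp820, Cyb5d2, Kcnh2 and Tmem219 (0.93), none of them shared with the Rag1 list. Among all 10688 other tested genes, Rag1 ranked 29 in likeness to Rag2, and Rag2 ranked 23 in likeness to Rag1. Ptcra spanned group means from 6.71 in BDC/B6g7 DN4 to 9.34 in NOD DN2-3 cells.

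The neighbours of the 3 genes were looked at in turn. Iftap, also named Nwc, overlaps the start of Rag2 on chromosome 2 and has 2 probe sets, neither bright enough to be tested. The brighter read 5.31 and 5.52 in B6g7 DN2-3, 7.14 and 5.62 in NOD DN2-3, 7.44 and 6.22 in B6g7 DN4 and 6.55 and 5.57 in NOD DN4 cells. In the transgenic cells every array lay between 4.07 and 4.996, under the gauge. Traf6, a signalling adaptor on the other side of Rag1, stayed between 9.57 and 10.10 on all arrays, and its transgene differences of 0.06 ± 0.07 and 0.07 ± 0.07 in DN2-3 and DN4 cells did not pass (limma adjusted p = 0.522 and 0.435). Near Dntt, Tm9sf3 rose by 0.49 ± 0.06 in transgenic DN4 cells (adjusted p = 1.85e-05) and read 0.14 ± 0.06 in DN2-3 cells (adjusted p = 0.0901). Prr5l and Opalin were under the gauge on all arrays, and Tll2 (5.74 to 6.39) and Blnk (5.51 to 6.08) close to it.

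The rest of the recombination reaction uses proteins that most cells make. Of 32 such genes, 29 were tested, and the others were not analysed here. In transgenic DN2-3 cells 12 rose and 2 fell, or 48.3% against 49.1% of all genes (29.8% higher and 19.3% lower), with a median change of 0.09 against 0.05 for all genes. In transgenic DN4 cells 6 rose and 18 fell, or 82.8% against 59.6% of all genes (28.7% higher and 30.8% lower), with a median of -0.35 against -0.03. The list was chosen with earlier results of these data known and gets no test of its own. Without the male arrays the counts were 6 higher and 2 lower in DN2-3 and 5 higher and 13 lower in DN4 cells, and with array weights 7 rose in DN2-3 cells.

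The cofactor Hmgb2, which bends DNA for the recombinase, rose by 0.57 ± 0.07 in transgenic DN2-3 cells and fell by 1.06 ± 0.07 in transgenic DN4 cells (limma adjusted p = 3.61e-05 and 4.85e-08). Its relative Hmgb1 fell by 0.43 ± 0.08 in DN4 cells. Among the end-joining genes Xrcc6 fell at both stages (0.40 ± 0.08 and 0.60 ± 0.08), while Xrcc5, which encodes its Ku80 partner, rose by 0.34 ± 0.06 and then fell by 0.35 ± 0.06. Xrcc4, the scaffold of the ligase, fell by 0.57 ± 0.13 in DN2-3 cells, and the ligase gene Lig4 rose by 0.75 ± 0.11 in DN4 cells. The gap-filling polymerases Poll (0.43 ± 0.08 and 0.49 ± 0.08) and Polm (0.30 ± 0.09 and 0.43 ± 0.09), relatives of TdT, rose at both stages. Paxx rose by 0.50 ± 0.11 and Nhej1 and Aplf fell by 0.39 ± 0.10 and 0.46 ± 0.10 in DN4 cells, and Aplf rose by 0.30 ± 0.10 in DN2-3 cells, a call lost in 9 of 29 alternatives.

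Of the 9 genes that sense breaks, 7 fell and Trp53bp1 rose (0.61 ± 0.08) in transgenic DN4 cells. The largest falls were those of Nbn, a subunit of the break-sensing MRN complex (0.98 ± 0.07), the ubiquitin ligase gene Rnf168 (0.94 ± 0.06), Rad50 (0.60 ± 0.06) and Rif1 (0.57 ± 0.07). In DN2-3 cells H2ax (0.41 ± 0.13), Mre11a (0.24 ± 0.07) and Nbn (0.18 ± 0.07) rose. Over 29 alternatives these calls were lost in 4, 3 and 11, and H2ax read 0.20 without NOD DN2-3 replicate 1, still called. Of the TdT partners, Pcna, the sliding clamp of DNA replication, rose by 0.20 ± 0.06 in DN2-3 (lost in 5 of 29 alternatives) and fell by 0.58 ± 0.06 in DN4 cells, and Dnttip2 fell by 0.25 ± 0.07 in DN4 cells. The genes of RAG2 turnover and nuclear import moved in the same 2 directions: Skp2, which marks phosphorylated RAG2 for destruction, by 0.52 ± 0.10 and -1.02 ± 0.10, Cdk2, whose kinase phosphorylates it, by 0.66 ± 0.08 and -0.36 ± 0.08, and the importin gene Kpna2 by 0.57 ± 0.07 and -0.87 ± 0.07. Kpna1 rose by 0.38 ± 0.07 in DN4 cells. Hmgb2, Pcna, Skp2, Cdk2 and Kpna2 are also genes of dividing cells.

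**Figure D4:**
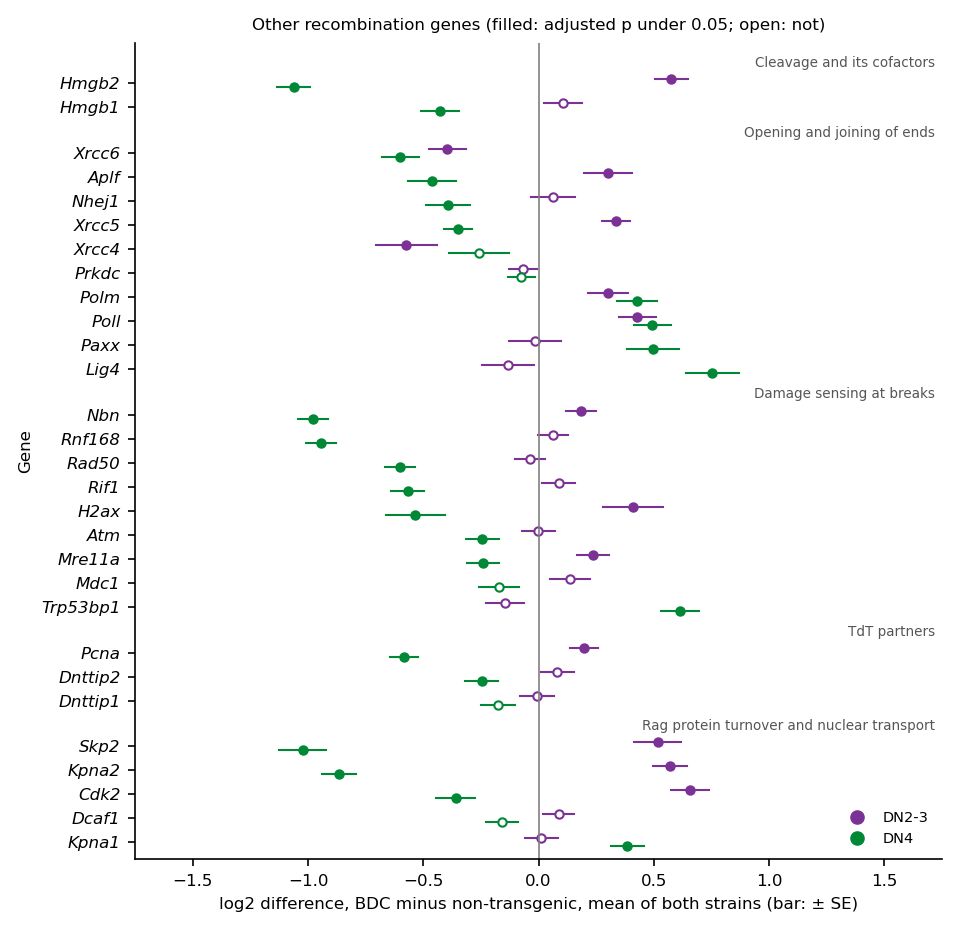
Log2 difference of transgenic minus non-Tg cells, averaged over the strains (horizontal axis, bars ± SE), for the 29 tested genes of the recombination reaction other than Rag1, Rag2 and Dntt (vertical axis, grouped by role); purple is DN2-3, green is DN4, and filled points passed an adjusted p of 0.05. In DN4 cells 18 of the green points lie to the left and passed, against 2 purple ones in DN2-3 cells.

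By strain, 11 of the 29 genes were higher and 3 lower in NOD mice (48.3%, against 41.6% of all genes). The largest differences were Skp2 (0.45 ± 0.07), Pcna (0.45 ± 0.04), Nbn (0.42 ± 0.05), Rnf168 (0.36 ± 0.05), Kpna2 (0.34 ± 0.05) and Hmgb1 (-0.33 ± 0.06). Xrcc6 (0.25 ± 0.06) and Cdk2 (0.24 ± 0.06) were higher and Polm (-0.25 ± 0.06) and Poll (-0.22 ± 0.06) lower. Xrcc5, Nhej1, Aplf and Mre11a were higher by 0.16 to 0.20, although the calls of Aplf and Nhej1 were lost in 17 and 14 of 28 alternatives. In transgenic DN4 cells alone 15 of 29 were higher in NOD mice and 1 was lower (55.2%, against 41.0%). From DN2-3 to DN4, 1 of the 29 rose and 2 fell on average, where 27.5% of all genes passed in either direction. They were Polm (0.30 ± 0.06), Poll (-0.18 ± 0.06) and Prkdc, the DNA-dependent protein kinase (-0.13 ± 0.04). The calls of Poll and Prkdc were lost in 11 and 13 of 28 alternatives. The average count ranged from 0 to 4 higher and 0 to 6 lower over the alternatives. Without NOD DN2-3 replicate 1 it was 2 higher and 6 lower. In single settings, 9 rose and 5 fell in B6g7, 14 rose and 1 fell in NOD, 3 rose and 20 fell in BDC/B6g7, and 1 rose and 0 fell in BDC/NOD cells. The shares of all tested genes that passed in either direction in these settings were 42.8%, 38.6%, 50.8% and 11.1%.

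Factors listed as candidates to act on the transcription of Rag1, Rag2 or Dntt made a further list. Of these, 25 of 26 were tested and Tcf7 was not analysed here. Such a role was not tested for any of them. In transgenic DN2-3 cells 7 rose and 10 fell (68%), and in transgenic DN4 cells 14 rose and 4 fell (72%), against the 49.1% and 59.6% of all genes given above. Notch3, a receptor of the Notch pathway that drives early T cell development, fell by 1.49 ± 0.15 in DN2-3 cells, and Notch1 by 0.56 ± 0.16. Notch1 ran from -0.82 to -0.30 over the alternatives, the latter without NOD DN2-3 replicate 2, and lost its call in 2 of 29. Zfp608, which represses Rag transcription in immature thymocytes, fell by 0.86 ± 0.06 in DN2-3 cells and rose by 0.59 ± 0.06 in DN4 cells (limma adjusted p = 2.67e-07 and 2.48e-06). Id3, an inhibitor of E proteins that TCR signals induce, rose by 0.95 ± 0.09 in DN2-3 cells and read -0.07 ± 0.09 in DN4 cells, while its relative Id2 fell by 0.75 ± 0.10 and 0.29 ± 0.10, the latter call being lost in 8 of 29 alternatives.

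In DN4 cells Foxo1, an activator of Rag transcription, rose by 1.35 ± 0.07, while the Rag genes fell. Its target Klf2 rose by 0.96 ± 0.10 and 1.58 ± 0.10 at the 2 stages, and Gata3 by 0.59 ± 0.08 and 1.46 ± 0.08. Bcl11b, a T-lineage commitment factor, rose by 0.89 ± 0.11 in DN4 cells, and Ikzf3 (-1.502 ± 0.14) and Gfi1b (-0.56 ± 0.10) fell there. E2f1, which drives cell-cycle genes, rose by 0.89 ± 0.13 in DN2-3 and fell by 0.61 ± 0.13 in DN4 cells.

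**Figure D5:**
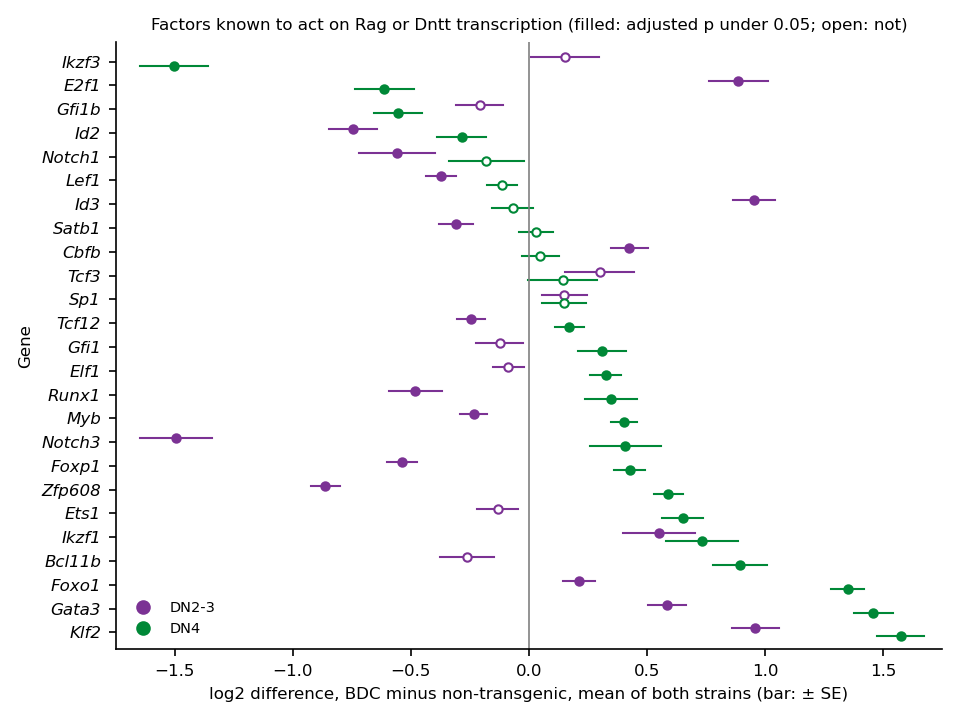
Log2 difference of transgenic minus non-Tg cells, averaged over the strains (horizontal axis, bars ± SE), for 25 factors listed as candidates to act on Rag or Dntt transcription (vertical axis). Purple is DN2-3, green is DN4, and filled points passed a limma adjusted p of 0.05. Klf2, Gata3 and Foxo1 lie farthest to the right in DN4 cells, and Ikzf3 in DN4 cells and Notch3 in DN2-3 cells farthest to the left.

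By strain, 5 of the 25 factors were higher and 6 lower in NOD mice (44%, against 41.6%), led by E2f1 (0.40 ± 0.09), Id2 (0.31 ± 0.07), Gfi1b (0.30 ± 0.07) and Lef1 (0.28 ± 0.04) on one side and Foxo1 (-0.39 ± 0.05), Klf2 (-0.32 ± 0.07), Zfp608 (-0.26 ± 0.04) and Foxp1 (-0.25 ± 0.05) on the other. Without NOD DN2-3 replicate 1, 11 were higher, and without the male arrays 2 were higher and 3 lower. From DN2-3 to DN4, 11 rose and 7 fell (72%, against 27.5%), and without the male arrays 6 rose and 4 fell. Ikzf3, an Ikaros-family gene, rose by 2.23 ± 0.10, Satb1 by 0.56 ± 0.05, Klf2 by 0.50 ± 0.07 and Lef1 by 0.46 ± 0.04. Notch3 (0.80 ± 0.11), Id2 (0.68 ± 0.07), Notch1 (0.67 ± 0.11) and Runx1 (0.47 ± 0.08) fell by the amounts given.

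Markers of other cells moved with the groups. In such sorted populations fewer cells of a type and less RNA per cell cannot be told apart. The mean log2 level of 7 gamma-delta and innate-like T cell markers was 7.36 to 7.66 on non-Tg arrays and 8.89 to 10.70 on transgenic arrays. It was highest in BDC/B6g7 DN4 (10.69 and 10.70), the group lowest in Rag1 and Dntt. For Rag2 both BDC/B6g7 groups lay under the gauge. The mean level of 6 mature T cell markers was 7.87 to 8.17 on non-Tg and 8.81 to 10.20 on transgenic arrays. It was again highest in BDC/B6g7 DN4, and Klf2 of this list is also among the factors above. In these 2 lists Il7r and Zbtb16 departed from the mean. Il7r fell by 0.86 ± 0.08 in transgenic DN2-3 cells and did not pass in DN4 cells (0.04 ± 0.08). Zbtb16 rose by 0.32 ± 0.10 in transgenic DN2-3 cells and did not pass in DN4 cells (0.04 ± 0.10). Zbtb16 was also higher in NOD mice on average (0.55 ± 0.07), unlike the rest of its list. The 5 markers of double-positive cells, which express the Rag genes again, averaged 9.36 and 9.37 in B6g7 DN4, 9.13 and 9.24 in NOD DN4, 8.96 and 8.97 in BDC/NOD DN4 and 8.21 and 8.24 in BDC/B6g7 DN4, against 7.85 to 8.21 in DN2-3 cells. They did not move as one. From DN2-3 to DN4, Cd8b1, Cd8a and Cd4 rose on average by 2.02 ± 0.11, 1.64 ± 0.09 and 0.72 ± 0.07. Arpp21 fell by 0.23 ± 0.05 and Cd1d1 did not pass. In transgenic DN2-3 cells Cd8b1 and Cd8a rose by 1.11 ± 0.16 and 0.42 ± 0.12, while Arpp21 and Cd1d1 fell by 0.94 ± 0.07 and 0.64 ± 0.06. The part of these markers in the results above was not tested. Markers of B cell progenitors, which also express all 3 genes, averaged 6.16 to 6.63 on all arrays, and 3 of the 10 measured, Cd79a, Ebf1 and Ms4a1, lay under the gauge on every array. Cd79b (8.59 to 9.69) and Igll1 (6.53 to 8.04) were brighter. In transgenic DN2-3 cells they fell by 0.73 ± 0.07 and 0.75 ± 0.08, and Vpreb2 did not pass. In transgenic DN4 cells Cd79b rose by 0.20 ± 0.07, Vpreb2 fell by 0.26 ± 0.10 and Igll1 did not pass.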

How the data were processed

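RNA of 16 sorted thymocyte samples was hybridised to Affymetrix mouse gene arrays. Intensities were deposited by the authors as linear RMA values (Affymetrix Power Tools, RMA, per the submitters' processing notes; versions are not given in the sources used here). RMA quantile-normalizes arrays together, which can hide a shift of all genes. Values were taken to log2 without a pseudocount. Of 25108 probe sets, 21157 had 1 symbol, 1341 several and 2610 none; the brightest probe set stood for a gene, and 10689 genes whose highest group mean reached 7.05 (an intensity of 132.9) were tested. limma 3.58.1 in R 4.3.3 fitted 8 group means over all arrays (8 residual and 5.06 prior degrees of freedom; eBayes, two-sided, Benjamini-Hochberg over all tested genes, threshold 0.05), checked on simulated data. Precision is limited by 2 arrays a group. Alternatives were other filters, probe sets, normalizations, spread estimates, blocks, sex, background and arrays left out. Named genes were the 3 genes, their genomic neighbours, up to 4 called members of each list in each direction in each averaged comparison, and the 8 most alike genes of each, leaving out Gm, Rik and receptor segment genes (for some of these the value at the other stage is given too). The genes and lists were chosen with earlier results of these data known. Same-numbered DN2-3 and DN4 samples of a strain and genotype deviated together (correlations of 0.101 to 0.585 in all 4 pairs), so the numbers were taken to pair the stages; among the 24 same-numbered pairs of other strains or genotypes the range was -0.254 to 0.408, with 8 over 0.1, and in the BDC groups the number is also the sex. Of 133 listed symbols, 120 matched, and the others were not analysed here. Marker lists of myeloid and dendritic cells, natural killer cells, the single erythroid gene Alas2 and thymic stroma averaged 6.31 to 6.87, 5.10 to 6.23, 5.98 to 6.51 and 6.48 to 6.83 on the log2 scale, and the DN list 10.08 to 11.19. Single genes departed from these means. Nkg7 (7.33 to 11.78) rose by 3.20 ± 0.09 in transgenic DN4 cells, while Ncr1, Klrb1c and Klrd1 lay under the gauge. In transgenic DN2-3 cells Lyz2 fell by 1.67 ± 0.15 and Epcam by 0.53 ± 0.08, and Cd68 rose by 0.35 ± 0.09. In transgenic DN4 cells Cd68 and Bst2 fell by 0.44 ± 0.09 and 0.57 ± 0.09.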

Additional observations from a re-analysis of the deposited data

Results flagged for a closer look

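Of the interactions, 12 passed the adjusted p of 0.05 of limma and are listed because an effect differed between the strains. The transgene effect on Rag1 was less negative in NOD than in B6g7 mice by 1.692 in DN2-3 cells, 2.385 in DN4 cells and 2.039 on average. For Dntt it was less negative by 0.74 in DN4 cells and 0.5843 on average. For Rag2 the values were 1.105 in DN4 cells and 0.7799 on average, and they reversed once signals under the background gauge were raised to it. The stage effect on Rag1 was higher in NOD mice by 1.204 in non-Tg cells, 1.897 in transgenic cells and 1.55 on average. That on Dntt was higher by 0.5945 in transgenic cells and 0.4388 on average.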

How the results depend on the processing

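Of the 37 group differences of Rag1, Rag2 and Dntt that passed, 24 kept direction and call in every alternative, as did 2 of 12 interactions, the strain by transgene terms of Rag1 in DN4 cells and on average. Of 84 results on 41 list genes, 59 kept their call, 25 lost it under some alternative and 0 reversed. Where a call changed, the cause was not tested, except that fewer arrays or raised signals follow from the alternative itself. With quantile normalization applied again, Rag2 by stage was -0.34 on average and no longer called, Dntt by strain in non-Tg DN4 cells was -0.037 and Dntt by stage in NOD cells -0.43 and called. With median centring Rag1 by stage in NOD cells was 0.10 and the Rag2 stage average -0.30, no longer called; that average of -0.33 was also lost with sex as a term. With the replicate number as a fixed block, with a random block for the pairing of stages, and with a trended and robust fit, Dntt by stage in NOD cells (-0.28) passed; the blocks changed no other call of a group difference, and the random block ended that of the Rag2 strain by transgene average (0.78). With array weights Rag1 by stage in BDC/NOD cells (0.46) and the transgene effect on Dntt in NOD DN4 cells (-0.23) passed. With only the arrays compared, the NOD DN2-3 transgene effects on Rag1 (-1.52) and Dntt (-0.64) were no longer called and Rag1 by stage in BDC/NOD cells (0.46) was.

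With the 4 male arrays left out, which leaves 1 array in each BDC group, the following group differences lost their call. By transgene it was Rag1 in NOD DN4 cells (-1.002). By strain they were Rag1 in transgenic DN2-3 (1.67) and non-Tg DN4 cells (0.88), Rag2 in transgenic DN2-3 cells (1.16) and Dntt on average (0.21). By stage they were Rag1 (-0.59), Rag2 (-0.35) and Dntt (-0.28) on average and Rag2 (-0.55) and Dntt (-0.52) in BDC/B6g7 cells. The interaction calls lost in that setting are given above. With low signals raised to 5.98, Rag2 lost its calls by strain in transgenic DN2-3 (0.48) and DN4 cells (0.36) and by stage in BDC/B6g7 cells (0) and on average (-0.17). Its strain by transgene terms became -0.11, -0.092 and -0.10, its strain by stage terms -0.12 and -0.13, and its transgene by stage terms 0.21 and 0.22.

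Leaving out 1 array at a time, the transgene effects in NOD DN4 cells ran from -1.161 to -0.9485 for Rag1 and from -0.3236 to -0.1295 for Dntt. By strain, Rag1 ran from -0.6629 to 0.01033 in non-Tg DN2-3 and from 0.5886 to 1.167 in non-Tg DN4 cells. Rag2 ran from 0.3518 to 0.8261 in non-Tg DN2-3, 0.9633 to 1.125 in transgenic DN2-3 and 0.04898 to 0.8522 in non-Tg DN4 cells, and Dntt from -0.3976 to -0.08866 in non-Tg DN2-3 and -0.01957 to 0.09952 in non-Tg DN4 cells. By stage, the range was -0.3454 to 0.3279 for Rag1 in NOD cells. For Rag2 it was -0.6109 to 0.1923 in B6g7, -0.5848 to -0.1106 in NOD and -0.6798 to -0.5822 in BDC/B6g7 cells and -0.4274 to -0.2266 on average, and for Dntt -0.4297 to -0.1208 in NOD cells. The transgene by stage terms ran from -0.5158 to 0.06229 for Rag1 in B6g7 mice and from -0.04862 to 0.288 on average, and for Rag2 from -0.00959 to 0.4646 in NOD mice and -0.2979 to 0.1037 on average. The strain by stage terms of Rag2 ran from -0.54 to 0.2632 in non-Tg cells and from -0.01457 to 0.387 on average. With 2 arrays a group and signals near background, small changes of Rag2 could not be measured.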

Other observations

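Rag1 and Rag2, which share a locus, went opposite ways between replicates in several groups. Replicate 1 minus replicate 2 was 0.47 for Rag2 and -0.67 for Rag1 in NOD DN2-3, 0.80 and -0.58 in B6g7 DN4, and 0.30 and -0.21 in NOD DN4 cells. It was 0.19 and -0.10 in BDC/NOD DN4 and -0.10 and 0.54 in BDC/B6g7 DN4 cells, the latter with Rag2 under the gauge. In the transgenic DN2-3 groups the genes went the same way. In B6g7 DN2-3 cells both were higher in replicate 1, by 0.20 for Rag2 and 0.27 for Rag1. The brighter probe set of Iftap, the gene that overlaps Rag2, was also higher in replicate 1 of NOD DN2-3 (7.14 against 5.62), B6g7 DN4 (7.44 against 6.22) and NOD DN4 cells (6.55 against 5.57), and not of B6g7 DN2-3 cells (5.31 against 5.52). These differences between replicates were seen in the data and were not tested.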
